A study of Arabidopsis thaliana with 28 samples.

Results

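TREX-2 is a protein complex that links transcription to the export of mRNA through the nuclear pore. Its genes were described here in Arabidopsis thaliana, in RNA from nuclei and from cytoplasm of the mutant mos11 and of the wild type Col-0. The 8 genes were chosen by locus, for what their products are, out of 30901 loci in the count table. Earlier results of these data were known when they were chosen. They are SAC3A (AT2G39340), SAC3B (AT3G06290), SAC3C (AT3G54380), THP1 (AT2G19560), DSS1(I) on chromosome 1 (AT1G64750), DSS1(V) on chromosome 5 (AT5G45010), CEN1 (AT3G50360) and CEN2 (AT4G37010). All 8 loci are protein-coding in the RefSeq annotation of TAIR10.1, where THP1 has the symbol EER5 and both centrin loci have the symbol CEN2. All 8 passed the filter on low counts, which kept 16207 genes.

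In yeast, Sac3 is the scaffold of TREX-2 and binds Thp1, Sem1 (called DSS1 in other organisms), Sus1 (ENY2) and the centrin Cdc31. The complex sits at the basket of the nuclear pore, where it meets export receptors carrying mRNA out of the nucleus. In Arabidopsis, THP1 was found to bind SAC3A, SAC3B and the pore protein NUP1. MOS11, the gene that names the mutant, is a plant relative of the mammalian export factor CIP29, which works with the RNA helicase UAP56.

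The plants were 14 days old, and whole rosettes were taken, so that every library mixes the cell types of the leaf. The 4 groups were nuclei of mos11 (n = 5), nuclei of Col-0 (n = 4), cytoplasm of mos11 (n = 5) and cytoplasm of Col-0 (n = 4). The labels describe no treatment of the plants, name no allele for mos11 and do not say whether replicates came from separate plants, so the p-values speak only of variation among the sequenced samples, which may be technical. In such bulk samples, fewer cells of a type and less RNA per cell cannot be told apart.

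Library depth lay between 1966574 and 18213517 counts for mos11 nuclei, 2547560 and 3719008 for Col-0 nuclei, 907270 and 1280371 for mos11 cytoplasm, and 556016 and 1160001 for Col-0 cytoplasm. Levels are given as CPM, the counts of a gene scaled to a common library size with TMM factors. MOS11 itself had 4.61 to 11.1 CPM in mos11 cytoplasm, against 86.4 to 126 CPM in Col-0 cytoplasm, and 158 to 183 CPM in mos11 nuclei, against 193 to 227 CPM in Col-0 nuclei. Its RNA was 13.3-fold lower in the cytoplasm of the mutant (adjusted p = 5.78e-13), and the nuclear difference did not pass the test (adjusted p = 0.0546). All 5 leaf markers had counts in every group, and together reached 4880 to 5500 CPM in mos11 nuclei, 4040 to 5300 CPM in those of Col-0, 49000 to 56100 CPM in mos11 cytoplasm and 53600 to 65100 CPM in that of Col-0. Single markers differed between the genotypes in nuclei, where GLDP1 (2.03-fold, adjusted p = 0.00017), RCA (1.28-fold, adjusted p = 0.0161) and the root marker RHD6 (1.79-fold, adjusted p = 0.0423) were higher in mos11 and LHCB1.1 was 1.62-fold lower (adjusted p = 6.27e-05). In cytoplasm GLDP1 was 1.61-fold higher and LHCB1.1 and LHCB2.1 were 1.41-fold and 1.46-fold lower. Their part in the members' differences was not tested. The 4 root markers summed to at most 27.2 CPM in any library, the 3 flower markers to at most 5.76 CPM and the 3 seed markers to at most 2.42 CPM. The biological coefficient of variation was 6.16% in mos11 nuclei, 17.9% in Col-0 nuclei, 10.8% in mos11 cytoplasm and 23.7% in Col-0 cytoplasm. Every cytoplasmic library and 1 nuclear library, mos11 replicate 2, are labelled with both flow cells and the other nuclear libraries with flow cell 1, so flow cell and fraction cannot be told apart.

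Between the fractions, the members fell into 3 sets. The RNAs of the 3 scaffold genes SAC3A, SAC3B and SAC3C were higher in the nucleus, those of DSS1(I), DSS1(V) and CEN1 were higher in the cytoplasm, and those of THP1 and CEN2 did not pass the test, in either genotype. Between the genotypes, SAC3A, SAC3B and CEN1 were lower in mos11 nuclei, CEN1 was also lower in mos11 cytoplasm, and SAC3B was the member whose nucleus to cytoplasm ratio differed between the genotypes. Calls rest on an adjusted p under 0.05 over all genes tested, from edgeR's quasi-likelihood test with Benjamini-Hochberg adjustment. Fold changes are on the log2 scale, nucleus over cytoplasm or mos11 over Col-0, with approximate standard errors (SE) and intervals of 2 SE on each side.

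**Figure D1:**
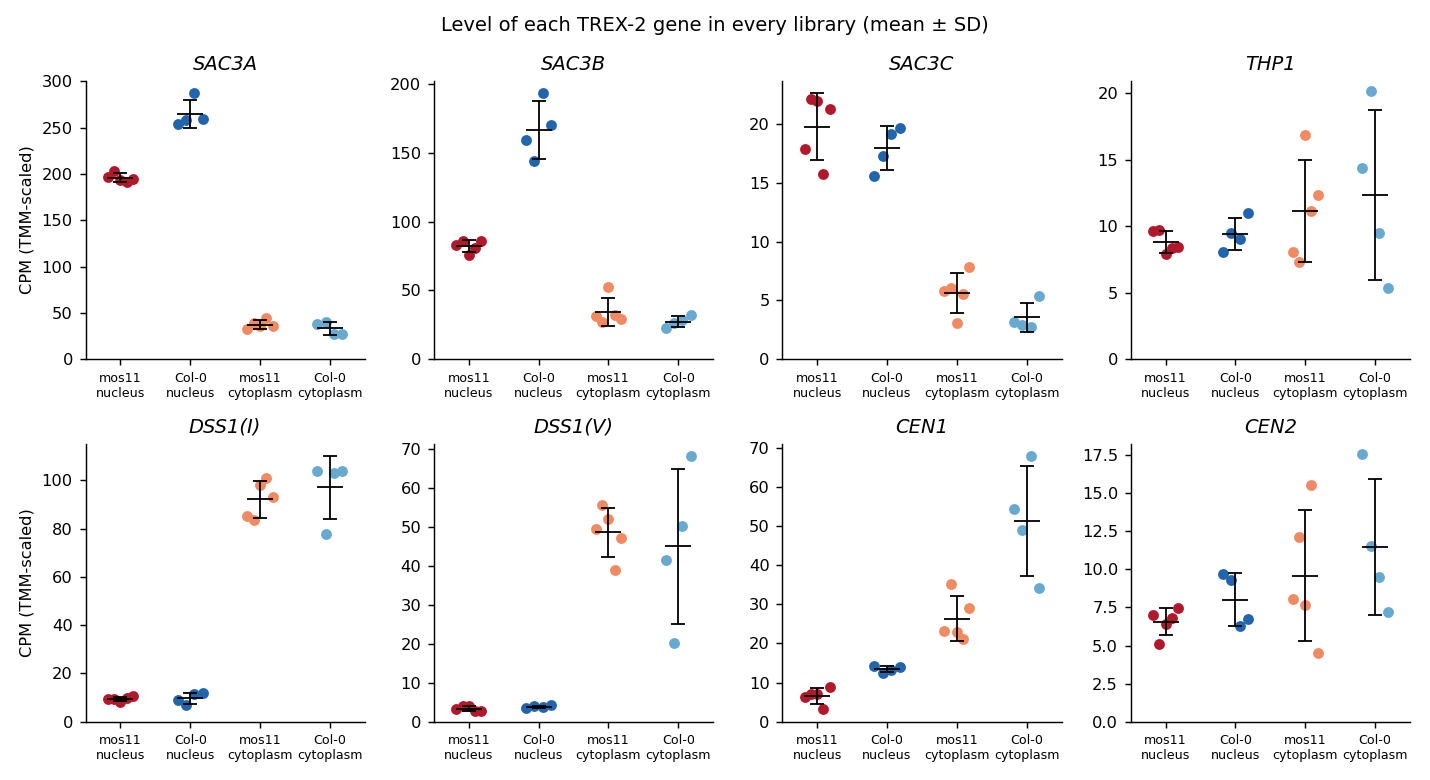
Level of each of the 8 genes in every library, in CPM scaled by TMM factors, on an axis from 0 that differs between genes; points are libraries and bars the mean ± SD. The scaffold genes are high in nuclei, the DSS1 genes and CEN1 in cytoplasm, and the SAC3A and SAC3B points of mos11 nuclei lie below all those of Col-0 nuclei.

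SAC3A encodes a scaffold subunit. Its locus is chr2:16423541-16430108 on the plus strand (TAIR10.1), with 14 exons. On the other strand it is overlapped by AT2G09035, an antisense RNA that was not counted, over 184 bases, and by ABCG1 over 24 bases. ABCG1 averaged 14.9 CPM in mos11 nuclei, 10.4 CPM in Col-0 nuclei, 14.6 CPM in mos11 cytoplasm and 6.11 CPM in Col-0 cytoplasm. The part of these overlaps in the SAC3A levels was not tested. SAC3A had 197, 204, 194, 192 and 194 CPM in mos11 nuclei, against 254, 258, 287 and 259 CPM in Col-0 nuclei. The 5 mutant nuclei lay within a narrow band below every Col-0 nucleus, and the groups did not overlap. In cytoplasm it had 32.3, 38.7, 35.2, 44.4 and 35.8 CPM in mos11, against 38.4, 40.3, 27.1 and 26.9 CPM in Col-0, and these groups overlapped. SAC3A was 1.35-fold lower in mos11 nuclei (log2 fold change -0.43 ± 0.09, adjusted p = 0.00154). The cytoplasmic difference of 0.21 ± 0.17 did not pass the test (adjusted p = 0.533, interval -0.14 to 0.55).

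SAC3B encodes the longest of the scaffold subunits, and in Arabidopsis it is also known from screens for genes that act on gene silencing. The locus is chr3:1898877-1907448 on the minus strand (TAIR10.1), with 19 exons and no annotated gene overlapping it. SAC3B had 83.3, 86.1, 75.4, 80.8 and 85.9 CPM in mos11 nuclei, against 159, 144, 194 and 170 CPM in Col-0 nuclei. Every mutant nucleus was far below the lowest Col-0 nucleus. In cytoplasm the levels were 31.1, 26.6, 52.1, 32.2 and 29.1 CPM in mos11, against 22.4, 25.9, 28.5 and 32.3 CPM in Col-0, with overlapping groups and mos11 replicate 3 above all other cytoplasmic libraries. SAC3B was 2.02-fold lower in mos11 nuclei (log2 fold change -1.02 ± 0.11, adjusted p = 4.71e-07). In cytoplasm the difference was 0.30 ± 0.22, which did not pass the test (adjusted p = 0.424, interval -0.14 to 0.73).

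SAC3A and SAC3B were the scaffold genes that were lower in mutant nuclei, so the 120 bases before the annotated start of each are shown, from RefSeq TAIR10.1 and read 5′ to 3′ on the strand of the gene. Capitals mark TGGGCC or its reverse complement GGCCCA, a form of the site II element, a motif known from promoters of plant housekeeping genes. Only these letters were searched for, so other forms of the element are not marked or counted. The SAC3A window is chr2:16423421-16423540 on the plus strand and the SAC3B window is chr3:1907449-1907568 on the minus strand.
SAC3A: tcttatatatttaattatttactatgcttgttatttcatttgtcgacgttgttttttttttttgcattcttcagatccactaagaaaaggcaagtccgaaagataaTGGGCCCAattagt
SAC3B: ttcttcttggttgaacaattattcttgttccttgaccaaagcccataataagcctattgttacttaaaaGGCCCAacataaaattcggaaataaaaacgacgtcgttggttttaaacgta

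In SAC3A the matches on both strands overlap, in TGGGCCCA. The windows of SAC3A, SAC3B and THP1 held TGGGCC on either strand and those of the other 5 members did not, beside 2752 of the 27418 windows of the same length before protein-coding genes. THP1 carried it without passing the test between the genotypes in either fraction. The G-box CACGTG was found in the CEN1 window and in 4.17% of all windows. The telo-box AAACCCTA (2.62% of all windows), the evening element AAATATCT (2.36%) and TATAAA (29.4%) were found in no member's window, which says only that these letters are not in those 120 bases.

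SAC3C is the shortest and least abundant scaffold gene, at chr3:20133893-20137007 on the minus strand (TAIR10.1), with 9 exons. SAC3C had 17.9, 22.2, 21.9, 15.7 and 21.3 CPM in mos11 nuclei, against 15.6, 17.3, 19.2 and 19.7 CPM in Col-0 nuclei, and the groups overlapped. Its nuclear difference of 0.16 ± 0.14 did not pass the test (adjusted p = 0.466, interval -0.12 to 0.44), so the interval holds no fall of the size seen for SAC3A or SAC3B. In cytoplasm SAC3C rested on 2 to 7 counts per library in mos11 and 1 to 3 in Col-0, and its difference of 0.71 ± 0.49 had an interval from -0.27 to 1.69 (adjusted p = 0.444).

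The 3 scaffold genes therefore stood in other proportions to each other in mutant nuclei. The count of SAC3B was 0.389 to 0.442 times that of SAC3A in mos11 nuclei, against 0.558 to 0.674 times in Col-0 nuclei. SAC3C counts were 0.195 to 0.291 times those of SAC3B in mos11 nuclei, against 0.098 to 0.12 times in Col-0 nuclei. Neither pair of ranges overlapped, and a ratio within a library does not depend on how libraries are scaled. In cytoplasm SAC3B over SAC3A was 0.688 to 1.48 in mos11, against 0.583 to 1.20 in Col-0, and the ranges overlapped. SAC3B had only 22 to 34 counts per library there in mos11 and 9 to 21 in Col-0. All ratios given here are of counts in genes of unlike length, and no test was run on them.

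**Figure D2:**
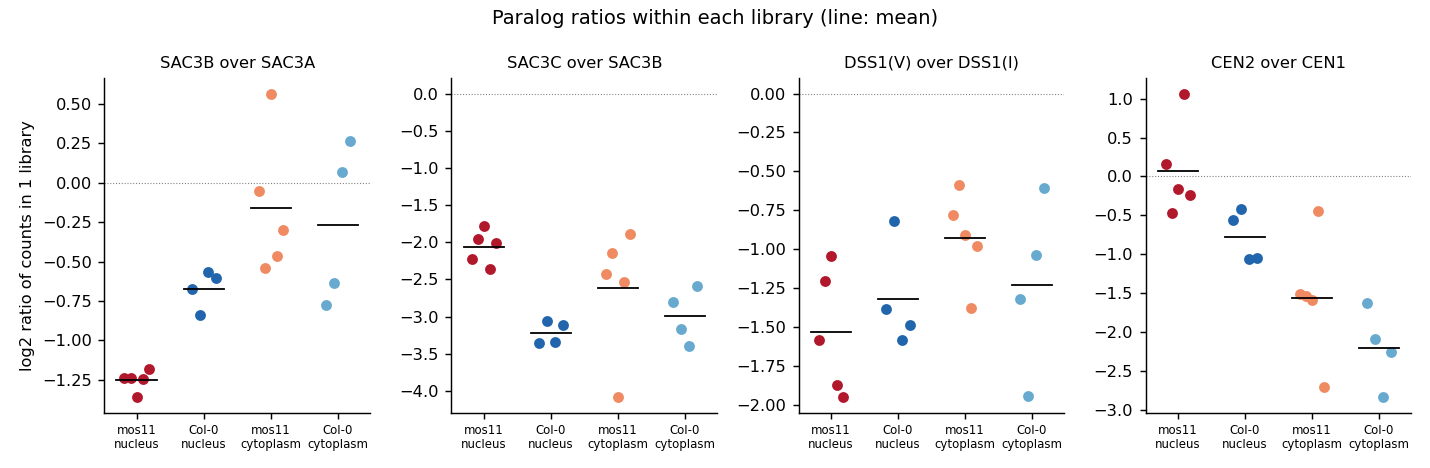
Ratio of the counts of a pair of related genes within each library, on a log2 axis; points are libraries, lines are means and the dotted line marks equal counts. SAC3B over SAC3A is lower, and SAC3C over SAC3B higher, in all 5 mos11 nuclei than in any Col-0 nucleus.

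THP1 encodes the partner that sits on the scaffold in yeast TREX-2, and in Arabidopsis it is also known as EER5 for an enhanced response to ethylene. Its locus is chr2:8465690-8469145 on the minus strand (TAIR10.1), with 13 exons. THP1 had 9.66, 9.68, 7.89, 8.32 and 8.46 CPM in mos11 nuclei, against 8.06, 9.50, 9.03 and 10.9 CPM in Col-0 nuclei. In cytoplasm it had 8.07, 7.26, 16.9, 11.1 and 12.3 CPM in mos11, against 14.4, 20.2, 9.49 and 5.38 CPM in Col-0. The groups overlapped in both fractions. The genotype difference was -0.07 ± 0.18 in the nucleus (adjusted p = 0.909, interval -0.44 to 0.29) and -0.08 ± 0.35 in the cytoplasm (adjusted p = 0.926, interval -0.79 to 0.63). The nuclear interval, which is narrower than the test allows, leaves out a fall of the size seen for SAC3B.

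DSS1 is a very small acidic protein that yeast TREX-2 shares with the lid of the proteasome, where it is Sem1. Arabidopsis has a copy on chromosome 5, at chr5:18166898-18168383, and a copy on chromosome 1, at chr1:24052362-24053923, both on the minus strand (TAIR10.1). The coding sequences, of 222 bases for DSS1(V) and 225 bases for DSS1(I), are shown to let a reader see how much of a read could be shared by both. They come from RefSeq TAIR10.1, with bases that differ or have no partner in the alignment in capitals. RefSeq also lists a DSS1(I) coding sequence of 348 bases, and the one nearest in length to that of DSS1(V) was aligned.
DSS1(V): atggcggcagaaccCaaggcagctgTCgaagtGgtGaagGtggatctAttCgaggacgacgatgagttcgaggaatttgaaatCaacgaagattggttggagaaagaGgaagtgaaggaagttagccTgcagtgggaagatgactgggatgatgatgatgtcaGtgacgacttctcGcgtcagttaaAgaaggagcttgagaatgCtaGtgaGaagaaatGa
DSS1(I): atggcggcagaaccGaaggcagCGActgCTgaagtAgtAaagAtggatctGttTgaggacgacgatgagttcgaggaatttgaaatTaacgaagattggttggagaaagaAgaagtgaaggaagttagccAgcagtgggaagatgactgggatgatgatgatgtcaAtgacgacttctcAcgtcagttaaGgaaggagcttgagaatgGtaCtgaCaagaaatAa

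The aligned DSS1 sequences differed at 18 of 222 positions, with 3 gapped positions, which is 90.7% identity, and the longest run of bases common to their transcripts was 35. Reads that lie within such a run cannot be given to one copy, so the split between the copies is uncertain. DSS1(V) also overlaps AT5G45000 by 636 bases and AT5G45020 by 237 bases, both antisense to it, and whether reads were counted by strand is not stated in the sources used here. Those neighbours averaged at most 1.97 and 7.36 CPM in any group. In nuclei AT5G45020 averaged 5.78 CPM in mos11 and 7.36 CPM in Col-0, above DSS1(V) itself at 3.30 and 3.85 CPM. The nuclear level and the fraction ratio of DSS1(V) are therefore uncertain if reads were not counted by strand. DSS1(I) overlaps TUA1, a tubulin gene, by 126 bases on the other strand, and TUA1 averaged 59.0 ± 9.19 CPM in mos11 cytoplasm and 52.5 ± 11.6 CPM in Col-0 cytoplasm (SD, n = 5 and 4). On the same strand it overlaps AT1G08727, a non-coding RNA gene, by 96 bases, and AT1G08727 averaged at most 0.185 CPM in any group.

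DSS1(I) had 85.3, 83.5, 98, 101 and 93 CPM in mos11 cytoplasm, against 104, 77.8, 103 and 104 CPM in Col-0 cytoplasm. In nuclei it had 9.42, 9.31, 8.14, 9.80 and 10.5 CPM in mos11, against 9.14, 6.89, 11.5 and 11.7 CPM in Col-0. The genotypes overlapped in both fractions, while every cytoplasm was several times above every nucleus. The genotype difference of DSS1(I) was -0.06 ± 0.16 in the nucleus (adjusted p = 0.856) and -0.10 ± 0.15 in the cytoplasm (adjusted p = 0.73), with intervals of -0.38 to 0.27 and -0.40 to 0.20.

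DSS1(V) had 49.6, 55.7, 52.1, 38.9 and 47.1 CPM in mos11 cytoplasm, against 41.6, 20.2, 50.1 and 68.1 CPM in Col-0 cytoplasm. The Col-0 libraries enclosed the mos11 libraries at both ends, and the lowest of them, replicate 2, rested on 7 counts. In nuclei DSS1(V) averaged 3.30 ± 0.658 CPM in mos11 and 3.85 ± 0.282 CPM in Col-0 (SD, n = 5 and 4), with overlapping ranges. Its genotype difference was -0.12 ± 0.25 in the nucleus (adjusted p = 0.794) and 0.04 ± 0.21 in the cytoplasm (adjusted p = 0.932). DSS1(V) took 20.5% to 32.7% of the summed counts of both copies in mos11 nuclei, 25% to 36.2% in those of Col-0, 27.8% to 40.0% in the cytoplasm of mos11 and 20.6% to 39.6% in that of Col-0, so DSS1(I) held the larger share in every library.

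CEN1 and CEN2 encode centrins, small calcium-binding proteins. Yeast TREX-2 holds the centrin Cdc31, and Arabidopsis CEN2 is known for a part in nucleotide excision repair together with RAD4. CEN1 lies at chr3:18674137-18675761 and CEN2 at chr4:17444129-17445615, both on the plus strand (TAIR10.1). Their coding sequences were 70.3% identical, with no common run of bases in their transcripts longer than 14, so that reads longer than this can be told apart.

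CEN1 had 6.28, 7.13, 7.15, 3.27 and 8.79 CPM in mos11 nuclei, against 14.2, 12.5, 13.1 and 13.9 CPM in Col-0 nuclei. All mutant nuclei were below all Col-0 nuclei, with mos11 replicate 4 the lowest on 11 counts. In cytoplasm CEN1 had 23.1, 35.1, 23.0, 21.1 and 29.1 CPM in mos11, against 54.3, 49.0, 67.8 and 34.0 CPM in Col-0. There the groups met, since mos11 replicate 2 lay above Col-0 replicate 4. CEN1 was 2.01-fold lower in mos11 nuclei (log2 fold change -1.01 ± 0.19, adjusted p = 0.000469) and 1.99-fold lower in mos11 cytoplasm (-0.99 ± 0.24, adjusted p = 0.00548). The cytoplasmic call was lost without Col-0 cytoplasm replicate 3, at -0.79 and an adjusted p of 0.0587.

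CEN2 had 7.0, 5.13, 6.41, 6.83 and 7.44 CPM in mos11 nuclei, against 9.68, 9.31, 6.3 and 6.76 CPM in Col-0 nuclei, and the groups overlapped. The nuclear difference of -0.37 ± 0.22 did not pass the test (adjusted p = 0.255, interval -0.80 to 0.07). In cytoplasm the averages were 9.57 ± 4.30 CPM in mos11 and 11.4 ± 4.46 CPM in Col-0 (SD, n = 5 and 4), from 4 to 14 counts per library, and the difference was -0.25 ± 0.39 (adjusted p = 0.751). CEN2 overlaps ACD2, a chlorophyll breakdown gene, by 167 bases on the same strand, and ACD2 averaged 67.9 CPM in mos11 cytoplasm and 85.6 CPM in Col-0 cytoplasm, so the cytoplasmic level of CEN2 is uncertain.

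Together, 3 of 8 members were called lower in mos11 nuclei, beside 10.9% of the 16207 genes tested, and the same 3 had non-overlapping groups, beside 13.3% of genes. Calls in either direction made up 20.1% of genes. The median log2 fold change was -0.24 over the 8 members and -0.07 over all genes tested. Among all genes, SAC3B stood at percentile 1.68 of the nuclear fold changes, CEN1 at 1.71 and SAC3A at 12.8. In cytoplasm 1 of 8 members was called, beside 12.4% of genes in either direction and 6.4% lower. Against a change of 1.5-fold rather than any change, SAC3B remained past the threshold in nuclei (adjusted p = 0.00495), while SAC3A (adjusted p = 1) and CEN1 (adjusted p = 0.131) did not.

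**Figure D3:**
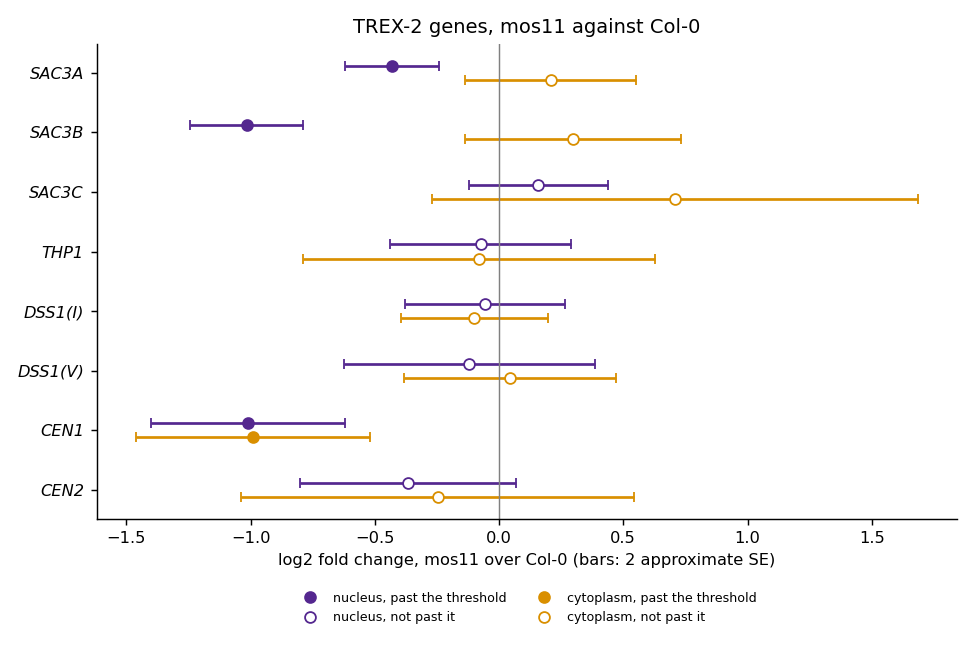
Log2 fold change of each gene, mos11 over Col-0, in the nucleus and in the cytoplasm; bars are 2 approximate SE on each side and filled points passed the test. SAC3A, SAC3B and CEN1 lie left of 0 in the nucleus, and CEN1 alone of the 8 is filled in the cytoplasm.

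The comparison of fractions sets the level of a gene among nuclear RNAs against its level among cytoplasmic RNAs. Each library was scaled on its own, so the ratio does not give the part of a gene's RNA that lay in either fraction. SAC3A was 5.24-fold higher in nuclei than in cytoplasm of mos11 (2.39 ± 0.12, adjusted p = 1.38e-16) and 8.17-fold higher in Col-0 (3.03 ± 0.14, adjusted p = 8.69e-17). SAC3B was 2.45-fold higher in nuclei of mos11 (1.29 ± 0.14, adjusted p = 6.71e-09) and 6.10-fold higher in those of Col-0 (2.61 ± 0.18, adjusted p = 3.15e-13). For SAC3C the factors were 3.45 in mos11 (1.79 ± 0.24) and 5.05 in Col-0 (2.34 ± 0.36). The nuclear and cytoplasmic libraries of these 3 genes did not overlap in either genotype, beside 34.8% of genes in mos11 and 36.1% in Col-0 that stood apart in this direction.

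DSS1(I) was 9.80-fold higher in cytoplasm than in nuclei of mos11 (nucleus over cytoplasm -3.29 ± 0.14, adjusted p = 1.18e-17) and 10.1-fold higher in that of Col-0 (-3.34 ± 0.17, adjusted p = 4.60e-16). DSS1(V) was 13.5-fold higher in cytoplasm of mos11 (-3.75 ± 0.21) and 12.0-fold higher in that of Col-0 (-3.59 ± 0.26). CEN1 was 3.94-fold higher in cytoplasm of mos11 (-1.98 ± 0.23) and 3.89-fold higher in that of Col-0 (-1.96 ± 0.22). These 3 genes had non-overlapping fractions in both genotypes, beside 30.5% of genes in mos11 and 27.6% in Col-0 with the nucleus wholly below. THP1 had a log2 ratio of -0.28 ± 0.25 in mos11 (adjusted p = 0.375) and -0.28 ± 0.32 in Col-0 (adjusted p = 0.434). CEN2 had -0.63 ± 0.30 in mos11 (adjusted p = 0.0559) and -0.51 ± 0.35 in Col-0 (adjusted p = 0.194).

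The fractions differed for 6 of 8 members in each genotype, beside 76.1% of genes in mos11 and 73.5% in Col-0, so the share of members called was close to the background. Of the 8, 3 were called higher in the nucleus, beside 40.8% of genes in mos11 and 40.6% in Col-0, and 3 lower, beside 35.3% and 32.8% in those genotypes. Where the zero of this ratio lies depends on the scaling: with library totals in place of TMM factors, chosen after seeing the data, the median over all genes moved up by 1.11 in mos11 and by 1.25 in Col-0. Under those totals THP1 was called higher in the nucleus, at 0.83 in mos11 (adjusted p = 0.0024) and 0.97 in Col-0 (adjusted p = 0.00434), and CEN2 was called higher in the nucleus of Col-0 at 0.74 (adjusted p = 0.0396). The other 6 members kept their direction and call under both scalings.

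**Figure D4:**
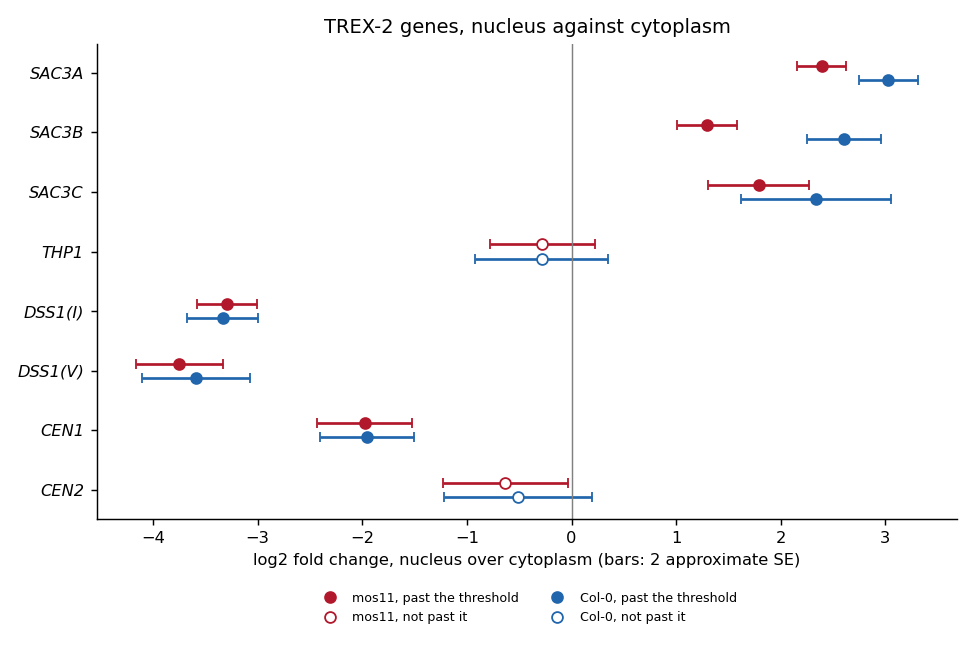
Log2 fold change of each gene, nucleus over cytoplasm, in mos11 and in Col-0; bars are 2 approximate SE on each side and filled points passed the test. The genotypes lie close together for THP1, the DSS1 genes and the centrins, and furthest apart for SAC3B, at 1.29 in mos11 and 2.61 in Col-0.

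The difference of the fraction ratio between the genotypes was tested as an interaction. It was -1.31 ± 0.24 for SAC3B (adjusted p = 0.00474, interval -1.80 to -0.83), which was the 1 member of 8 that passed, beside 1.58% of genes in either direction and 0.919% lower. The cytoplasmic side of the SAC3B ratio rested on 22 to 34 counts per library in mos11 and 9 to 21 in Col-0. SAC3A had -0.64 ± 0.20 and did not pass (adjusted p = 0.0955). For DSS1(I) the interaction was 0.04 ± 0.22 (interval -0.40 to 0.48), for CEN1 -0.02 ± 0.27 (-0.56 to 0.52) and for THP1 0.01 ± 0.40 (-0.79 to 0.80), so that for these genes the test leaves out a difference as large as that of SAC3B. For SAC3C the interval was -1.57 to 0.47, which holds the value of SAC3B. With the replicate number as a block, 629 genes were called rather than 256, and SAC3B kept its call (-1.34, adjusted p = 0.000338).

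Transcript length moved with the fraction ratio across all genes tested. In mos11 the median log2 ratio of nucleus over cytoplasm was -1.11 in the shortest quartile of transcripts (93 to 1359 bases) and 0.86 in the longest (2444 to 16593 bases), and in Col-0 it was -1.24 and 1.23. SAC3A (3740 bases) and SAC3B (5437 bases) belong to the longest quartile, and DSS1(I) (879), DSS1(V) (937), CEN1 (1053) and CEN2 (937) to the shortest. Within their own length class in Col-0, SAC3A stood at percentile 88.6, SAC3B at 83.9, DSS1(I) at 13.2, DSS1(V) at 10.3, CEN1 at 36.6 and CEN2 at 63.4. SAC3B was lower in its class in mos11, at percentile 63.5, while SAC3A was at 88.6 there too. SAC3C, a shorter transcript of 1597 bases, stood at percentile 90.5 of its class, and THP1, of 1552 bases, at 43.9. The part of length in the positions of the members was not tested.

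**Figure D5:**
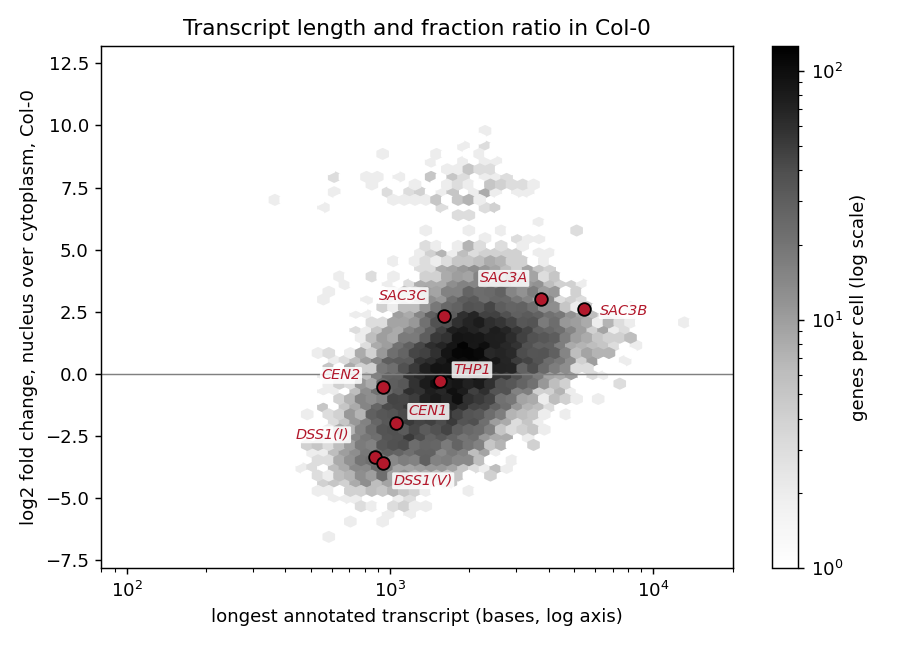
Length of the longest annotated transcript (log axis) against the log2 ratio of nucleus over cytoplasm in Col-0, for all genes tested (grey cells, shaded by number of genes on a log scale) with the 8 members in red. The grey cloud rises with length, SAC3A and SAC3B lie at its long end near 3.03 and 2.61, and the DSS1 genes at its short end near -3.34 and -3.59.

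Length also moved with the interaction. Its median was 0.13 in the shortest and -0.30 in the longest quartile, and SAC3B stood at percentile 6.89 and SAC3A at 25.1 of the longest. For the genotype comparison in nuclei, the median of the longest quartile was -0.11, and SAC3B was at percentile 1.51 of that quartile. CEN1 was at percentile 2.22 of the shortest quartile, whose median was -0.06.

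Per kilobase of transcript, the order of the genes differed between the fractions. These levels divide by the longest annotated transcript, and whether reads covered whole transcripts was not tested. The order of genes of unlike length is uncertain if they did not. In mos11 nuclei SAC3A led with 52.4 ± 1.23 CPM per kb, followed by SAC3B (15.1 ± 0.812), SAC3C (12.4 ± 1.79), DSS1(I) (10.7 ± 0.975), CEN2 (7.0 ± 0.942), CEN1 (6.20 ± 1.93), THP1 (5.67 ± 0.529) and DSS1(V) (3.52 ± 0.703). In Col-0 nuclei SAC3A led with 70.8 ± 4.09 CPM per kb, followed by SAC3B (30.7 ± 3.85), CEN1 (12.8 ± 0.756), SAC3C (11.2 ± 1.17), DSS1(I) (11.2 ± 2.59), CEN2 (8.55 ± 1.84), THP1 (6.05 ± 0.772) and DSS1(V) (4.11 ± 0.301). SAC3A stood clear of the rest in both genotypes. The ranges of SAC3C and DSS1(I) overlapped in both genotypes, as did those of THP1 and CEN2. CEN1 overlapped SAC3C and DSS1(I) in Col-0 nuclei, and CEN2, THP1 and DSS1(V) in mos11 nuclei. The order of genes with close means is therefore uncertain.

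In mos11 cytoplasm DSS1(I) led with 105 ± 8.74 CPM per kb, then DSS1(V) (51.9 ± 6.75), CEN1 (24.9 ± 5.49), CEN2 (10.2 ± 4.59), SAC3A (9.97 ± 1.23), THP1 (7.17 ± 2.46), SAC3B (6.3 ± 1.88) and SAC3C (3.54 ± 1.07). In Col-0 cytoplasm DSS1(I) led with 111 ± 14.7 CPM per kb, then CEN1 (48.7 ± 13.2), DSS1(V) (48.0 ± 21.2), CEN2 (12.2 ± 4.76), SAC3A (8.87 ± 1.92), THP1 (7.96 ± 4.11), SAC3B (5.01 ± 0.766) and SAC3C (2.22 ± 0.776). DSS1(I) was clear of all others in both genotypes. CEN1 and DSS1(V) overlapped in Col-0 and not in mos11, and CEN2, SAC3A and THP1 overlapped in both, as did SAC3B and THP1.

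The 8 genes summed to 106 to 118 CPM per kb in mos11 nuclei, against 146 to 167 in Col-0 nuclei, and these ranges did not overlap. This is not a result apart from the calls above, since SAC3A, SAC3B and CEN1 make up most of the gap. Their means were 52.4, 15.1 and 6.20 CPM per kb in mos11 nuclei, against 70.8, 30.7 and 12.8 in Col-0 nuclei. The mean of SAC3C was higher in mos11 (12.4 against 11.2), and the means of the rest were lower by less. None of these genes passed the test between the genotypes in nuclei. In cytoplasm the sums were 204 to 229 in mos11 and 199 to 266 in Col-0. SAC3B made up 13.4% ± 0.593 of the sum in mos11 nuclei and 19.7% ± 1.34 in Col-0 nuclei (SD, n = 5 and 4). SAC3A made up 46.4% ± 1.52 in mos11 nuclei and 45.6% ± 1.44 in Col-0 nuclei, and DSS1(I) 47.9% ± 3.49 in mos11 cytoplasm and 45.4% ± 1.37 in Col-0 cytoplasm.

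The lid of the proteasome, which holds DSS1 as a subunit, was described for 13 genes, 12 of them tested. Its genes lay on the cytoplasmic side with the DSS1 genes: 11 of 12 were called higher in cytoplasm in mos11, beside 35.3% of all genes, and 12 of 12 in Col-0, beside 32.8%, with median log2 ratios of nucleus over cytoplasm of -1.8 and -2.0 in those genotypes, beside 0.18 and 0.30 over all genes tested. RPN11, the deubiquitinating subunit, had -2.33 in mos11 and -2.77 in Col-0, and RPN6 had -3.09 in mos11 and -2.93 in Col-0. In cytoplasm RPN11 was the 1 lid gene called between the genotypes, at 121 ± 11.1 CPM in mos11 and 166 ± 27.5 CPM in Col-0 (log2 fold change -0.44 ± 0.12, adjusted p = 0.0179; SD, n = 5 and 4). By DESeq2, 3 lid genes were lower in mos11 cytoplasm, and 4 had an unadjusted p under 0.05 in edgeR. With library totals, 7 of 12 were called higher in cytoplasm of mos11 and 8 of 12 in that of Col-0, while 1, RPN5B, named here after its value was seen, was called higher in nuclei of mos11 (0.77, adjusted p = 0.00163). RPN11 was then no longer called between the genotypes (adjusted p = 0.182). In nuclei edgeR called 0 lid genes, with 1 lower at an unadjusted p under 0.05, and DESeq2 also called 0. Over all genes, edgeR called 20.1% between the genotypes in nuclei and 12.4% in cytoplasm.

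Of the 8 pore proteins and subunits of the deubiquitination module that work beside TREX-2, 2 were called higher and 3 lower in the nucleus than in cytoplasm, in both genotypes, beside 40.8% higher and 35.3% lower over all genes in mos11 and 40.6% higher and 32.8% lower in Col-0. NUA, a protein of the nuclear basket, had log2 ratios of 1.14 in mos11 and 1.25 in Col-0. RAE1, an export factor at the pore, had -1.76 in mos11 and -2.21 in Col-0. Between the genotypes, RAE1 was the 1 gene of this list called in cytoplasm, at 61.2 ± 5.70 CPM in mos11 and 84.5 ± 13 CPM in Col-0 (log2 fold change -0.48 ± 0.16, adjusted p = 0.0422). That call was lost with library totals (adjusted p = 0.242), under which 5 of the 8 were higher and 1 lower in the nucleus in mos11, and 6 higher and 1 lower in Col-0. In nuclei edgeR called 0 of the 8, with 0 at an unadjusted p under 0.05, and DESeq2 also called 0. The shares of all genes called between the genotypes by edgeR were 20.1% in nuclei and 12.4% in cytoplasm. NUP1, which anchors TREX-2 at the pore, had 119 ± 6.32 CPM in mos11 nuclei and 121 ± 10.7 CPM in Col-0 nuclei, and ENY2, the plant Sus1, had 11.9 ± 2.0 CPM in mos11 nuclei and 12.1 ± 3.40 CPM in Col-0 nuclei.

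Of 18 genes of the THO complex and its export partners, 3 were higher and 9 lower in the nucleus than in cytoplasm in mos11. In Col-0, 2 were higher and 7 lower. Over all genes the shares were 40.8% higher and 35.3% lower in mos11, and 40.6% higher and 32.8% lower in Col-0. The balance within the list turned with library totals, to 11 higher and 4 lower in mos11 and 13 higher and 3 lower in Col-0. THO2, the large subunit of THO, had ratios of 0.80 in mos11 and 1.08 in Col-0, and LOS4, an RNA helicase of mRNA export, had -1.66 in mos11 and -1.83 in Col-0. In nuclei 1 of the 18 was called between the genotypes, beside 20.1% of all genes. DESeq2 called 3 lower, and 4 were lower at an unadjusted p under 0.05 in edgeR. The gene called was ALY3, an export adaptor, with 142 ± 4.8 CPM in mos11 and 190 ± 23.8 CPM in Col-0 (log2 fold change -0.42 ± 0.10, adjusted p = 0.00271), a change of the size seen for SAC3A. In cytoplasm the 1 gene called was MOS11, beside 12.4% of all genes. MOS11 was also the 1 gene of the list called for the interaction, at 3.45 ± 0.23, beside 1.58% of all genes. Other settings gave other cytoplasmic counts: DESeq2 called 2 lower, RLE factors 2 lower, and library totals 2 higher and 1 lower.

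Of the 4 DNA repair partners of DSS1 and centrin, 3 were tested, and all 3 were higher in the nucleus than in cytoplasm in both genotypes, beside 40.8% of all genes in mos11 and 40.6% in Col-0. RAD4, the partner of centrin in recognising DNA damage, had 40.1 ± 1.87 CPM in mos11 nuclei and 54.1 ± 7.11 CPM in Col-0 nuclei, and was called lower (log2 fold change -0.43 ± 0.14, adjusted p = 0.026), a call lost with library totals (adjusted p = 0.0604). BRCA2A, a recombination protein that binds DSS1, had fraction ratios of 1.14 in mos11 and 1.81 in Col-0. Its cytoplasmic side rested on 2 to 9 counts per library in mos11 and 2 to 3 in Col-0. For the interaction 0 of the 3 genes were called, beside 1.58% of all genes.

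Over the 18 libraries, among 12238 genes whose mean log2 CPM was 3 or more, the genes whose log2 CPM followed SAC3A most closely were AT5G13980 (r = 0.996), AT2G03140 (0.990) and ATX2 (0.990), a histone methyltransferase gene. For SAC3B they were INO80, a chromatin remodeller (0.979), EMB2770, a splicing factor gene (0.976) and AT5G55600 (0.971). For THP1 they were RPH1 (0.880), AT1G09900 (0.817) and AT2G25610 (0.772). The libraries share 4 groups and a large difference between the fractions, so these values describe the shape over groups, and many genes follow the same contrast. SAC3A and SAC3B followed each other at 0.934 over the 18 libraries, and at -0.30 once the group means were taken out.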

How the data were processed

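The authors deposited 1 table of raw counts per gene, with a column for each of 18 libraries; the labels list 28 samples, since some libraries were on 2 flow cells, and whether a column sums both is not stated. Per the submitters' processing notes, the tools included featureCounts, UMI-tools, Picard and STAR 2.7.8a and the build was TAIR10; roles, settings and strandedness of the counting are not stated in the sources used here. External control RNAs were not used here. Positions, lengths and sequences came from RefSeq TAIR10.1, which lists all 30901 loci.

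Counts were analysed with edgeR 4.0.16 in R 4.3.3. A single model held all 18 libraries as 4 groups, after TMM scaling and filterByExpr, with quasi-likelihood tests adjusted by Benjamini-Hochberg over 16207 genes. Standard errors are approximate: the size of the log2 fold change divided by the root of its F statistic. For some genes, such as THP1 in nuclei and SAC3C in cytoplasm, the test gave a larger p than this F alone would. Their intervals are too narrow. TMM factors were 1.45 to 1.54 in nuclei and 0.596 to 0.729 in cytoplasm. Alternatives were DESeq2 1.42.0, other scalings and filters, a replicate block, only the groups compared, a test against 1.5-fold and leaving out libraries; the scripts were tested on simulated data. No library was a copy of another.

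Same-numbered nuclei and cytoplasm of Col-0 deviated together only weakly (correlations of 0.105 to 0.333, all 4 pairs over 0.1). For replicate 2 (0.165) a cytoplasm of another number matched the nucleus better, so it is not established that the numbers pair these libraries. Correlations of mos11 (0.0146 to 0.0526) and those between genotypes were not over 0.1 in every pair. The main tests used no pairing, and the replicate block was run as an alternative. Related genes were aligned by script; their log2 ratios, per-kilobase levels and correlations were described with no test. The text names the 8 members, MOS11, up to 2 genes per partner list, comparison and direction with the smallest p among those called, and the 3 genes most correlated with SAC3A, SAC3B and THP1. NUP1 and ENY2 were added for their role, with their values known. The members and lists were chosen with earlier results of these data known.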

Additional observations from a re-analysis of the deposited data

Results flagged for a closer look

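Among 32 groups of values, 4 genotype and fraction groups for each of the 8 genes, 3 libraries stood apart from the rest of their group, where chance alone flags about 1 in 20 groups. SAC3A had 287.4 CPM in Col-0 nucleus replicate 3, above the other Col-0 nuclei at 254.3, 258.1 and 259.1 CPM, and further from the mos11 nuclei than they were. SAC3B had 52.09 CPM in mos11 cytoplasm replicate 3, above the other 4 mos11 cytoplasms at 26.62 to 32.2 CPM. DSS1(I) had 77.77 CPM in Col-0 cytoplasm replicate 2, the library with the lowest depth, below the other Col-0 cytoplasms at 103 to 103.9 CPM.

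The nucleus to cytoplasm ratio of SAC3B differed between mos11 and Col-0 by a log2 value of -1.314, by the test of the interaction itself.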

How the results depend on the processing

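For the 8 members and 5 comparisons, 40 values were recomputed under 1066 alternatives in all; 1052 left the call as it was, and 31 of the 40 values kept their call under every alternative, while some values that were not called changed sign. The nuclear fall of SAC3B in mos11 stayed past the threshold throughout, at -1.08 to -0.94.

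Against a change of 1.5-fold, 425 genes and 1 member were called between genotypes in nuclei, 210 genes and 0 members in cytoplasm, and 8 genes and 0 members for the interaction; tested against any change, edgeR and DESeq2 each called 1 member in cytoplasm and 1 for the interaction. SAC3B then had an adjusted p of 0.29 for the interaction. With both fractions of Col-0 replicate 3 omitted, CEN1 in cytoplasm was -0.79 (adjusted p = 0.0501) and 0 members were called there. For the interaction DESeq2 called 578 genes. CEN2 in mos11 was called lower in the nucleus with only the compared groups fitted (-0.65) and without Col-0 nucleus replicate 3 (-0.65), mos11 nucleus replicate 5 (-0.68) or mos11 cytoplasm replicate 5 (-0.82).

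With library totals, added after seeing the data, THP1 reversed to 0.83 in mos11 and 0.97 in Col-0 and CEN2 to 0.74 in Col-0, SAC3A passed for the interaction at -0.78 (adjusted p = 0.0311), and 460 genes and 2 members were called for it. Totals moved the median by 0.20 between genotypes in cytoplasm, by 0.06 in nuclei and by -0.14 for the interaction, and RLE factors moved it by 0.23 between the fractions of mos11 and 0.18 in Col-0. With totals 1745 genes were called higher and 1361 lower in mos11 nuclei (TMM: 1482 and 1772), 2027 and 527 in mos11 cytoplasm (976 and 1038), 11060 and 2967 in the nucleus over cytoplasm of mos11 (6613 and 5726), 11103 and 2703 in that of Col-0 (6587 and 5321), and 54 and 406 for the interaction (107 and 149; RLE 142 and 109). The causes were not tested.

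Leaving out 1 library at a time, the members called were 3 to 3 between genotypes in nuclei, 0 to 1 in cytoplasm, 6 to 7 between fractions of mos11, 6 to 6 in Col-0 and 1 to 1 for the interaction, and the genes called were 2256 to 3634, 1507 to 2222, 11568 to 12923, 11437 to 12249 and 132 to 333. The interaction counted 256 genes with all libraries, 163 without Col-0 nucleus replicate 4, 154 without Col-0 cytoplasm replicate 4, 147, 160 and 152 without mos11 nucleus replicates 2, 3 and 5, and 159 and 132 without mos11 cytoplasm replicates 2 and 4. SAC3B kept its interaction call in all of these (-1.41 to -1.15).

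With the replicate block, 629 genes were called for the interaction, 2829 between genotypes in nuclei, 1843 in cytoplasm, 12304 between the fractions of mos11 and 11902 between those of Col-0 (no block: 256, 3254, 2014, 12339 and 11908), and 0 of the 40 member values changed call or sign. In cytoplasm SAC3C, CEN2 and THP1 rested on 1 to 14 counts per library, so changes of their levels there were not detectable at this depth unless large. SAC3A had 23 to 40 counts per library in mos11 cytoplasm and 14 to 24 in Col-0 cytoplasm. SAC3B had 22 to 34 and 9 to 21 counts in the same groups, so small cytoplasmic changes of both were also hard to detect.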
